A study of Mus musculus with 16 samples.

Results

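Ascl3, Foxi1, Cftr, Coch and Atp6v1b1 are genes of the ionocyte-like microvillar cell of the olfactory epithelium, and their RNA was followed here through a sort of the mouse olfactory mucosa. They were taken by symbol from the deposited array table, as 1 probe set per gene with the highest mean over all arrays, and all 5 were found among the 19505 genes that the table names. The series holds 16 Clariom S arrays (Affymetrix) from 8 pools of 3 S100a5-tauGFP mice, each pool split by fluorescence-activated sorting into a GFP+ and a GFP− fraction. The 24 mice, of both sexes and 7 to 12 weeks old, were all of the reporter strain, with no zygosity given, and spent 40 h singly in chambers under clean air flowing at 3.1 L/min. From 26 h on, 4 pools received pulses of 10 s every 20 min of the odorant 2-octanone and the other 4 pools received pulses of filtered air, the vehicle. The 4 groups of 4 arrays are therefore GFP+ and GFP− cells after 2-octanone and after vehicle.

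The reporter strain carries GFP under the control of S100a5, a calcium-binding protein gene of olfactory sensory neurons that is expressed when they are active, so that the sort divides cells by reporter level and not by cell type. The pools mix RNA of 3 mice and of every cell that the gate let through. In such bulk RNA, fewer cells of a type and less RNA per cell cannot be told apart.

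Microvillar cells are non-neuronal cells with a tuft of microvilli that stand among the sustentacular cells at the apical surface of the olfactory epithelium. One kind expresses Trpm5 and resembles tuft cells, and the other resembles the ionocytes of airway and kidney, cells rich in mitochondria that move chloride, bicarbonate and protons. The forkhead factor Foxi1 is the master regulator of ionocytes in several epithelia, where it drives genes of the vacuolar proton pump. Ascl3 is a basic helix-loop-helix factor that marks progenitors in salivary glands and ionocytes in the airway. Cftr is the chloride and bicarbonate channel that is defective in cystic fibrosis. Coch encodes cochlin, a secreted matrix protein best known from the inner ear. Atp6v1b1 encodes the B1 subunit of the proton pump's cytosolic part, found in acid-secreting cells such as the intercalated cells of the kidney.

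The sequence before the start of each gene was taken from RefSeq (build GRCm38.p6), where all 5 genes matched. The arrays come with no genome build, so these positions describe the genes and not the probes. The 250 bases before the start lay at chr7:109731733-109731982 on the minus strand for Ascl3, at chr11:34208090-34208339 on the minus strand for Foxi1, at chr6:18170437-18170686 on the plus strand for Cftr and at chr6:83742767-83743016 on the plus strand for Atp6v1b1. Coch lies on the plus strand of chromosome 12. Of the 250 bases searched for it, 192 lie before the gene's RefSeq span and the rest within it, and its values cover the whole window. Base composition separated these promoters. G and C made up 34.8% of that of Ascl3, and only 4.6% of all 32851 promoters of this length in the table held less. The share was 58.8% for Foxi1, 59.6% for Atp6v1b1, 74.8% for Coch and 76.4% for Cftr, against a median of 52.4% over all promoters, and 97.0% of promoters held less than that of Cftr. Promoters of 3 genes are shown, those of Ascl3 and Cftr because they stand at the ends of this range although both genes were low in GFP+ cells, and that of Atp6v1b1 because it held the only motif match.

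Ascl3: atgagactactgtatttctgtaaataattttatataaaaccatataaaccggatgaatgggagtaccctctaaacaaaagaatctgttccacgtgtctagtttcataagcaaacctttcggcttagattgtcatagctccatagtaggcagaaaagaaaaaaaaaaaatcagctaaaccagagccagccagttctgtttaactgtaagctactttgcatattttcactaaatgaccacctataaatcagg
Cftr: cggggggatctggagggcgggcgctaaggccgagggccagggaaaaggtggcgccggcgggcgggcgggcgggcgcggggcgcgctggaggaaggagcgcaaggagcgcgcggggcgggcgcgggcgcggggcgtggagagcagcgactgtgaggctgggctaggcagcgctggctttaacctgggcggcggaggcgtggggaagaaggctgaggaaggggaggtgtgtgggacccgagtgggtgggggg
Atp6v1b1: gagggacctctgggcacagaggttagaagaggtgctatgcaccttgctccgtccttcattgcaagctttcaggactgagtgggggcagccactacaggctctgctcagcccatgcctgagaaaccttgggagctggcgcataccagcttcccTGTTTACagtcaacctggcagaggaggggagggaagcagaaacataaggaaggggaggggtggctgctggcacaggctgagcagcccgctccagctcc

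Sequences run 5′ to 3′ on the gene's strand, and capitals mark the match. The forkhead letters GTAAACA and ATAAACA and the E-box letters CAGCTG, the kind of site that basic helix-loop-helix factors bind, were searched on both strands, and none of the 3 overlapped another here. Atp6v1b1 held GTAAACA on the other strand, from 98 to 92 bases before the start, and no other match was found in the 5 windows. Over all promoters 3.17% held GTAAACA, 4.16% held ATAAACA and 13.0% held CAGCTG. A match describes the letters only.

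The deposited values were read as log2 signals, and they ran from 2.13 to 18.99. Array medians over the named genes were 7.64 to 7.73 in GFP+ and 7.92 to 8.01 in GFP− cells, and arrays of one group correlated at 0.97 to 0.99. A level for background was set per array as the 95th percentile of 23 background control probe sets, which lay between 7.61 and 8.18. This level is strict, since it lies near the array medians, while the controls averaged 5.40 to 5.61. A signal under it is therefore not shown to be absent. S100a5 read higher in the GFP+ fraction in all 8 pools (0.83, SE 0.60, limma adjusted p = 0.304). The share of all genes higher in all 8 pools was not counted. This fit has no pool term, so its SE takes in the low values of the pools numbered 4. On GFP+ arrays S100a5 read 16.47 to 16.98 in the pools numbered 1 to 3. In the pools numbered 4 it read 13.92 after 2-octanone and 13.22 after vehicle. GFP− arrays likewise gave 15.45 to 15.81 in the pools numbered 1 to 3. In those numbered 4 they gave 13.55 after 2-octanone and 13.11 after vehicle. The 8 markers of mature sensory neurons averaged 16.58 to 17.38 on every array, so both fractions were rich in neuronal RNA. The 10 neutrophil markers averaged 14.51 to 15.90 in GFP− cells and 6.76 to 8.27 in GFP+ cells after vehicle. In GFP+ cells after 2-octanone they averaged 7.21, 7.35, 9.73 and 12.40, so that pools 3 and 4 stood apart.

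Setting GFP+ against GFP− cells shows in which fraction the RNA of the 5 genes was higher. Foxi1, Ascl3, Cftr and Coch were all lower in GFP+ cells, with fitted differences of −3.55 to −2.16 on the log2 scale, and Atp6v1b1 was near the background level in both fractions. Limma called 4 of the 5 genes lower and none higher at a Benjamini-Hochberg adjusted p under 0.05, where 14% of all probe sets were called lower and 16.7% higher. The median of the 5 differences was −2.66, beside 0.13 over all probe sets. When each array was centred on its median, the median over all probe sets became 0.41 and that of the 5 genes −2.38, since centring shifts every difference in the sort upwards alike. Centring called 66.9% of all probe sets higher and 10.5% lower, and the calls higher after centring that are given for the lists are to be read against that share. The same 4 genes were called lower then, and also without 2-octanone pools 3 and 4, at −3.59 for Ascl3, −3.19 for Foxi1, −2.67 for Cftr and −2.25 for Coch. No GFP+ array reached the lowest GFP− array for 4 of the 5 genes, a separation that 8.27% of all genes showed.

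Among the transcription factors, Foxi1 read 10.61, 10.47, 10.81 and 11.02 in GFP− cells of vehicle pools 1 to 4 and 9.61, 11.23, 9.94 and 11.19 in those of 2-octanone pools 1 to 4. In GFP+ cells it read 8.04, 7.72, 6.66 and 7.64 after vehicle and 7.52, 7.00, 7.60 and 8.27 after 2-octanone. The fractions were 1.35 apart at their nearest arrays, and within GFP− cells 2-octanone pools 1 and 3 were the low ones. The difference was −3.06 (SE 0.26, 95% interval −3.61 to −2.50, limma adjusted p = 1.12e-07, n = 8 arrays per fraction). Since 7 of the 8 GFP+ arrays were at or under background, the mean signal of Foxi1 was at least 6.23-fold higher in GFP− cells. Such bounds set the GFP− mean against the mean of the higher of the signal and the background level on each GFP+ array. They concern the measured means and carry no sampling error. Within single pools the measured fold of Foxi1 went down to 4.28, in 2-octanone pool 1.

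Ascl3 read 9.18, 9.87, 8.98 and 9.68 in GFP− cells after vehicle and 8.98, 9.53, 9.02 and 10.38 after 2-octanone. In GFP+ cells it read 5.94, 4.26, 5.72 and 6.66 after vehicle and 5.77, 5.93, 5.56 and 7.39 after 2-octanone. All 8 GFP− arrays were above background and none of the 8 GFP+ arrays was. The pools numbered 4 gave the highest GFP+ value in both exposures. The fitted difference of Ascl3 was −3.55 (SE 0.33, interval −4.25 to −2.84, limma adjusted p = 3.23e-07), and its size rests on GFP+ values under background. As a bound on the means, its signal was at least 2.87-fold higher in GFP− cells.

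The chloride channel gene Cftr read 9.24, 9.76, 10.24 and 9.84 in GFP− cells after vehicle and 9.40, 10.01, 9.44 and 10.46 after 2-octanone. In GFP+ cells it read 7.58, 6.99, 6.39 and 7.44 after vehicle and 7.24, 6.84, 7.38 and 7.30 after 2-octanone. No GFP+ array was above background and all GFP− arrays were. The fitted difference was −2.66 (SE 0.20, interval −3.08 to −2.24, limma adjusted p = 2.53e-08), at least 3.66-fold as a bound on the means.

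Coch, the secreted matrix protein gene, was the only member measured above background on all 16 arrays. It read 14.26, 14.53, 14.65 and 14.89 in GFP− cells after vehicle and 13.64, 15.06, 14.13 and 15.39 after 2-octanone. In GFP+ cells it read 12.51, 12.46, 12.34 and 12.47 after vehicle and 11.65, 12.30, 12.42 and 13.08 after 2-octanone. Both fractions spread more among the 2-octanone pools, with SDs of 0.81 and 0.59, than among the vehicle pools, with SDs of 0.26 and 0.07. The gap between the fractions was 0.56. The difference was −2.16 (SE 0.23, interval −2.66 to −1.67, limma adjusted p = 1.57e-06), which makes the signal 4.48-fold higher in GFP− cells.

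Atp6v1b1, the proton pump subunit gene, read 7.56, 8.05, 7.72 and 8.14 in GFP− cells after vehicle and 7.11, 8.34, 7.13 and 7.25 after 2-octanone. In GFP+ cells it read 7.85, 7.44, 7.06 and 7.94 after vehicle and 6.75, 7.24, 6.62 and 6.80 after 2-octanone. The fractions overlapped, and 3 of 8 GFP− arrays and 1 of 8 GFP+ arrays were above background, so no fold is given. The difference of −0.45 (SE 0.19, interval −0.84 to −0.05) missed the threshold in limma (adjusted p = 0.0786). A limma fit that pairs both fractions of a pool through a block called it (adjusted p = 0.0180). Centring the arrays on their medians gave −0.17 (adjusted p = 0.397).

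**Figure D1:**
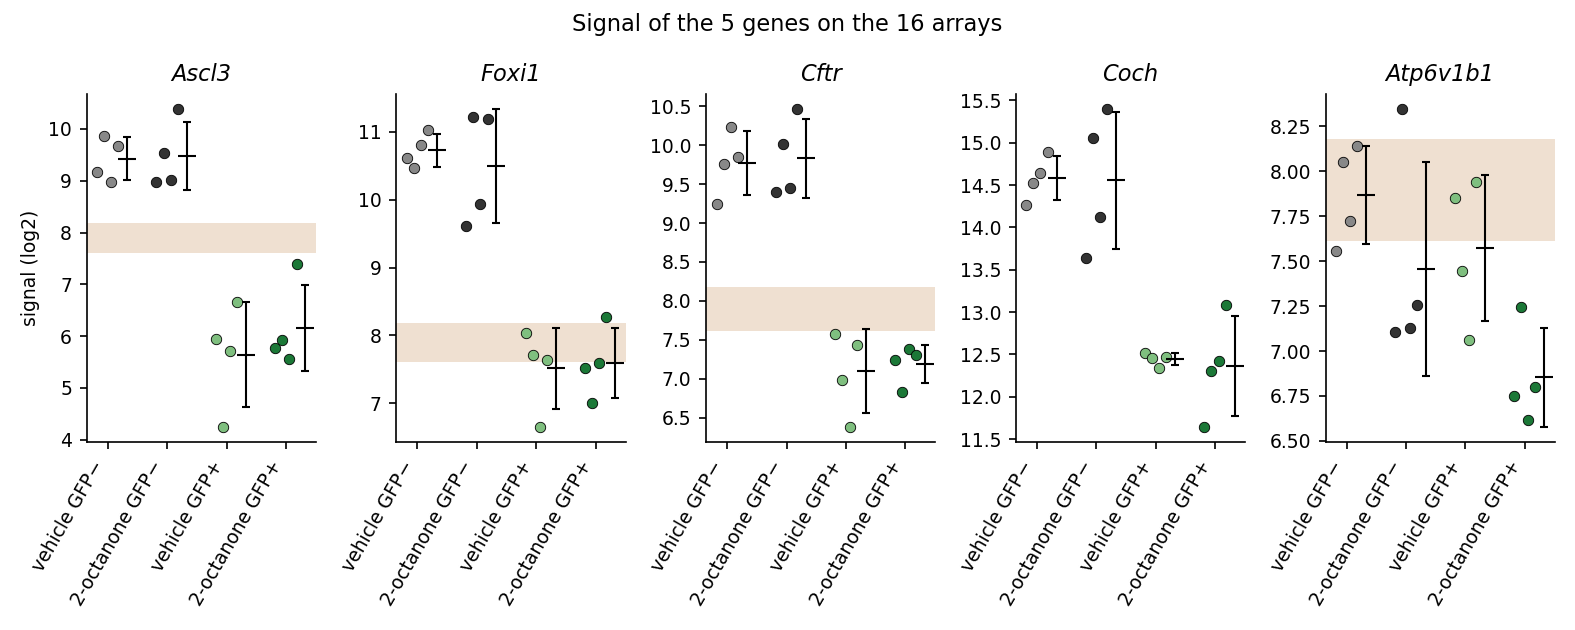
Signal (log2, vertical axis of each panel, not starting at 0 and scaled per gene) of the 5 genes on the 16 arrays, in 4 groups of 4 points, with the mean ± SD as a bar to the right of each group. The shaded band spans the background levels of the arrays, 7.61 to 8.18, and lies under all values of Coch, where it is not drawn. The groups of GFP− points lie above those of GFP+ points for Ascl3, Foxi1, Cftr and Coch and overlap for Atp6v1b1.

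Within pools, where both fractions come from the same 3 mice, the same 4 genes were lower in GFP+ cells in all 8 pools, as were 12.2% of all genes. The paired difference of Ascl3 ran from −5.61 to −2.99 (SD 0.86), and −5.61 came from vehicle pool 2, whose GFP+ array gave the lowest Ascl3 value of all. The other 7 pools lay between −3.60 and −2.99. For Foxi1 the range was −4.22 to −2.10, with 2-octanone pool 2 and vehicle pool 3 at the low end, and for Cftr it was −3.85 to −1.66, with vehicle pool 3 lowest and vehicle pool 1 highest. Coch varied least of the 4, from −2.75 to −1.70 (SD 0.36). Atp6v1b1 was lower in 7 of 8 pools, from −1.10 in 2-octanone pool 2 to 0.29 in vehicle pool 1.

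**Figure D2:**
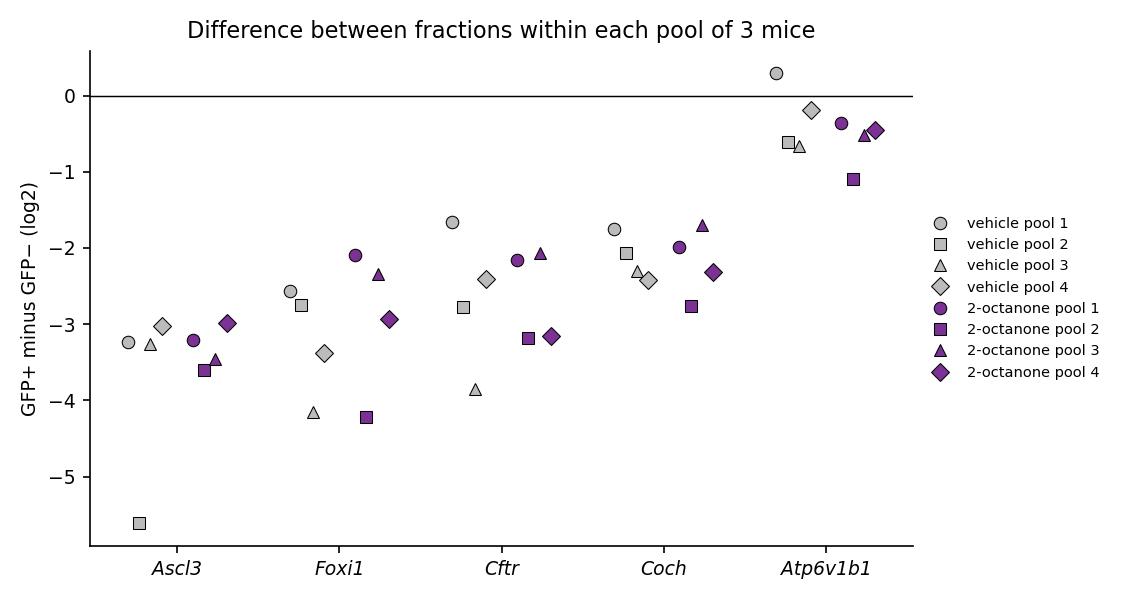
GFP+ minus GFP− signal within each pool (log2, vertical axis) for the 5 genes, with 1 symbol per pool of 3 mice, grey for vehicle and purple for 2-octanone. All 8 pools lie below 0 for Ascl3, Foxi1, Cftr and Coch, and vehicle pool 2 stands apart for Ascl3 at −5.61.

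The sort gave like values after each exposure. After vehicle the differences were −3.78 for Ascl3 (SE 0.47), −3.21 for Foxi1, −2.67 for Cftr and −2.14 for Coch, all called, where 11.0% of probe sets were called lower and 7.54% higher. After 2-octanone they were −3.31, −2.90, −2.64 and −2.19 in the same order, all called, where 9.80% were called lower and 5.29% higher. The 2 comparisons share no array, and the change of the difference with 2-octanone is tested with the odorant results. Atp6v1b1 differed by −0.29 after vehicle (limma adjusted p = 0.483) and by −0.61 after 2-octanone (adjusted p = 0.144, and 0.0362 with the pool as a block).

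Genes known from ionocytes of airway, kidney or inner ear were unevenly represented. Of 18 such genes besides the members, 14 were named on the array. Of these, 6 were lower in GFP+ cells, 1 was higher and 7 did not pass the test, where 14% of all probe sets were lower and 16.7% higher. Only 4 of the 14 were above background on any array, namely Hepacam2, Stap1, Moxd1 and Tfcp2l1. The median of the list was −0.15, and with arrays centred on their medians it was 0.13, with 6 genes called in each direction.

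Hepacam2, a cell adhesion protein gene of the immunoglobulin family, read 11.38 to 13.13 (median 12.33) in GFP− and 6.70 to 9.69 (median 8.04) in GFP+ cells, a difference of −4.33 (SE 0.34). Stap1, a signalling adaptor gene also expressed in B cells, read 10.09 to 11.78 (median 10.96) against 6.02 to 8.74 (median 6.96), a difference of −3.97 (SE 0.33). Moxd1, a monooxygenase-like gene, read 8.40 to 9.15 (median 8.88) against 7.07 to 8.08 (median 7.43), a difference of −1.33 (SE 0.13). The fractions did not overlap for any of these 3 genes. The B and T lymphocyte markers were lower in GFP+ cells for 6 of 6 genes, with differences of −3.01 to −0.80. Their part in the value of Stap1 was not tested.

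Tfcp2l1, a transcription factor gene of kidney collecting duct cells, read 7.92 to 8.45 in GFP− and 7.18 to 8.42 in GFP+ cells and differed by −0.22 (SE 0.17, limma adjusted p = 0.326). Dmrt2 (−0.91) and the Barttin gene Bsnd (−0.60), which serves chloride channels, were called lower, as was Hmx2 (−0.75), and Slc4a9 was called higher (0.45), but all 4 lay under background on all arrays. The anion exchanger gene Slc26a4 (0.15), the water channel gene Aqp6 (0.34) and the ammonia channel gene Rhcg (0.14) were also under background throughout.

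The vacuolar proton pump is built from subunits that most cells share and from versions restricted to acid-secreting cells. Of the 4 restricted subunits besides Atp6v1b1, 2 were called lower in GFP+ cells and none higher, beside 14% lower and 16.7% higher over all probe sets. Atp6v0d2 read 7.46 to 8.91 (median 8.50) in GFP− and 5.15 to 6.34 (median 5.73) in GFP+ cells, and was above background on 6 of 8 GFP− arrays and none of the GFP+ arrays. The fractions did not overlap, and the difference was −2.56 (SE 0.22). This subunit is also made in osteoclasts and macrophages, and of the 7 macrophage markers 3 were lower in GFP+ cells and none higher. Their mean signal was 8.47 to 9.94 in GFP− and 7.24 to 8.70 in GFP+ cells, and their part in this value was not tested. Atp6v1c2 differed by −0.67 (SE 0.22, limma adjusted p = 0.0334), a call that was lost when arrays were centred on their medians (−0.39, adjusted p = 0.123). Atp6v0a4 (0.20) and Atp6v1g3 (0.21) lay under background on all arrays.

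Of the 17 subunits shared by most cells, 16 were named on the array, with 2 called lower and 14 not passing the test. That is near the 14% of all probe sets called lower. Atp6v1b2, the widely expressed counterpart of Atp6v1b1, read 13.49 to 13.87 (median 13.61) in GFP− and 13.45 to 13.80 (median 13.63) in GFP+ cells. Its difference was 0.01 (SE 0.08, limma adjusted p = 0.916). Tcirg1 (−1.29, SE 0.13), a membrane subunit gene of osteoclasts and immune cells, and Atp6v0e (−1.17, SE 0.21) were the 2 called lower. With arrays centred on their medians, the other 14 were called higher, as were 66.9% of all probe sets, Atp6v1b2 among them at 0.29.

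**Figure D3:**
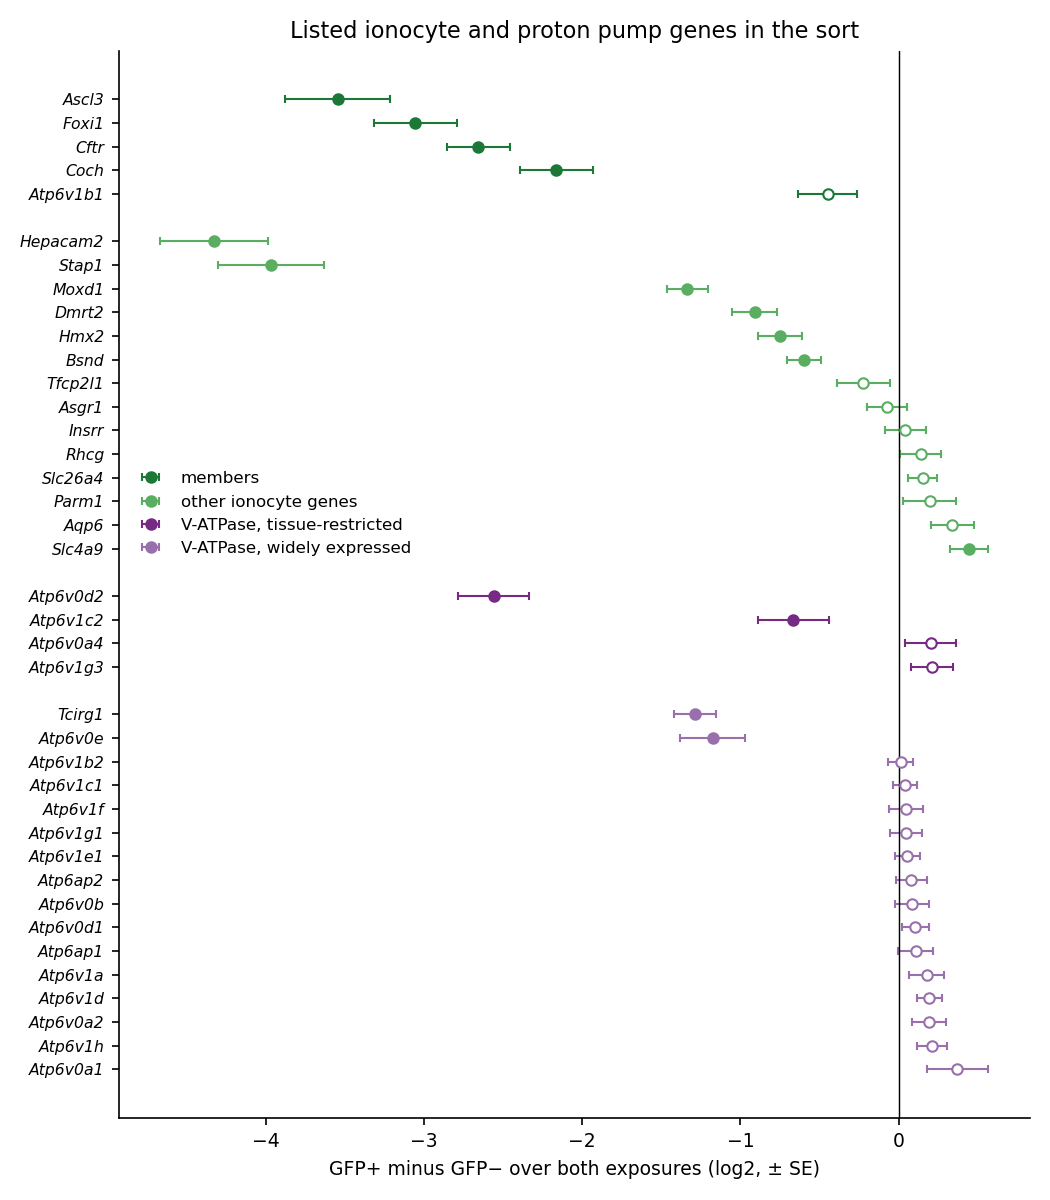
GFP+ minus GFP− signal over both exposures (log2, horizontal axis, point ± SE) for the 5 members and 3 lists of genes, 1 gene per row. Filled points passed an adjusted p under 0.05 in limma and open points did not. Hepacam2 and Stap1 lie below all members and Atp6v0d2 lies among them, and most shared subunits of the proton pump lie near 0.

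Of 15 genes for partners of CFTR and for chloride or bicarbonate transport, 4 were called lower in GFP+ cells and 1 higher. Over all probe sets 14% were called lower and 16.7% higher. The largest difference was that of Ezr, the gene of ezrin, which anchors membrane proteins in microvilli. It read 11.41 to 12.71 (median 11.86) in GFP− and 8.61 to 9.93 (median 9.34) in GFP+ cells, a difference of −2.69 (SE 0.23), and the fractions did not overlap. The carbonic anhydrase gene Car2 differed by −0.65 (SE 0.14) and the potassium channel subunit gene Kcne3, under background on all arrays, by −0.88. The bicarbonate cotransporter gene Slc4a4 was the one called higher, at 0.77 (SE 0.15). The chloride cotransporter gene Slc12a2 read 15.56 to 16.16 in GFP− and 15.59 to 15.95 in GFP+ cells and did not pass the test (−0.09, adjusted p = 0.487). After median centring this list held 3 genes lower and 7 higher.

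The epithelial sodium channel, which absorbs sodium in many epithelia that also hold CFTR, has 3 subunit genes. Scnn1g (−1.82, SE 0.12) and Scnn1b (−1.07, SE 0.19) were lower in GFP+ cells, the first under background on all arrays and the second above it on 2 GFP− arrays. Scnn1a read 8.96 to 10.25 in GFP− and 8.52 to 10.27 in GFP+ cells and did not pass the test (−0.04, SE 0.26).

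The relatives of both transcription factors were all under background on all arrays. These were Foxi2, Foxi3, Ascl2, Ascl4 and Ascl5, whose differences ran from −0.23 to 0.24 with none called, while median centring called 3 of them higher. Notch signalling sets the choice between ionocytes and other fates in several epithelia. Of its 13 listed genes 3 were lower in GFP+ cells, namely Hes6 (−1.47), Notch2 (−0.85) and Dll1 (−0.61), and the ligand genes Jag1 (0.87) and Jag2 (0.54) were higher, where 14% of all probe sets were lower and 16.7% higher. Notch2 and Dll1 lay under background on all 16 arrays, and Hes6 was above it on 3 GFP− arrays only. After median centring 2 were lower and 6 higher.

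Markers of other cell types moved in the same sort, where 14% of all probe sets were called lower and 16.7% higher. Of the 13 measured markers of the Trpm5 kind of microvillar cell, 11 were lower in GFP+ cells and none higher, with a median of −1.45. The channel gene Trpm5 read 9.30 to 10.89 (median 10.26) in GFP− and 6.50 to 8.03 (median 6.76) in GFP+ cells, a difference of −3.25 (SE 0.24). Pou2f3, the factor that specifies tuft cells, read 8.99 to 9.82 (median 9.36) against 6.69 to 7.91 (median 7.23), a difference of −2.14 (SE 0.15). Trpm5 thus lay among the differences of Ascl3, Foxi1, Cftr and Coch, and the members were not tested against this list.

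Among the remaining lists, all 10 neutrophil markers (median −7.04), all 4 precursor markers (−2.64), 5 of 6 immature neuron markers (−2.94) and 6 of 6 lymphocyte markers (−1.78) were lower. Of the 8 Bowman's gland markers 2 were lower, with the duct and gland factor Sox9 at −3.08, and none of the 9 sustentacular markers was lower while Muc2 was higher (0.79). Of 8 mature neuron markers and 5 ciliated cell markers, 4 each were higher, and after median centring all of both lists were. Beside these counts stand 14% of all probe sets lower and 16.7% higher, and 66.9% higher after centring. The part of the other cell types in the members' values was not tested.

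The comparison of 2-octanone with vehicle asks whether the odorant changed these genes in either fraction. None of the 5 genes was called in either fraction. In GFP+ cells limma called 0% of all probe sets (0 of 19572, with 618 at an unadjusted p under 0.05). The differences there were 0.52 for Ascl3 (interval −0.48 to 1.52), 0.08 for Foxi1 (−0.70 to 0.86), 0.09 for Cftr (−0.51 to 0.68) and −0.08 for Coch (−0.78 to 0.61). Of these 4 genes, Coch was above background on all 8 GFP+ arrays, Foxi1 on 1 and Ascl3 and Cftr on none. The markers of neutrophils were raised in 2-octanone pools 3 and 4, and without them the differences were 0.21 for Ascl3, −0.25 for Foxi1, −0.06 for Cftr, −0.47 for Coch and −0.58 for Atp6v1b1, none called.

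Atp6v1b1 read lower after 2-octanone in GFP+ cells, at 6.85 ± 0.27 against 7.57 ± 0.40 after vehicle (SD, n = 4), and 3 of the 4 values after 2-octanone lay under all 4 after vehicle. The difference of −0.72 (interval −1.28 to −0.16) had an unadjusted p of 0.0146 in limma and an adjusted p of 1. Only 1 of these 8 arrays was above background.

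In GFP− cells, where 4 members were above background on all arrays, limma called 1 gene in all, lower after 2-octanone (0.00511% of probe sets, with 477 at an unadjusted p under 0.05), and it was no member. Foxi1 read 10.49 ± 0.84 after 2-octanone and 10.73 ± 0.24 after vehicle, a difference of −0.23 (interval −1.01 to 0.55). The differences were 0.05 for Ascl3 (−0.95 to 1.05), 0.06 for Cftr (−0.54 to 0.66), −0.03 for Coch (−0.72 to 0.67) and −0.41 for Atp6v1b1 (−0.97 to 0.15). The groups overlapped for every member, so that the order of levels was GFP− above GFP+ for 4 genes, with the exposures not separated within a fraction.

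The change of the GFP+/GFP− difference with 2-octanone was called for none of the members, and 0% of probe sets were called (0 of 19572, with 465 at an unadjusted p under 0.05). It was 0.47 for Ascl3 (interval −0.94 to 1.88), 0.31 for Foxi1, 0.03 for Cftr, −0.05 for Coch and −0.31 for Atp6v1b1. None of the 5 signs shows a direction at these interval widths. No gene of the pathway lists was called for the odorant in either fraction.

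**Figure D4:**
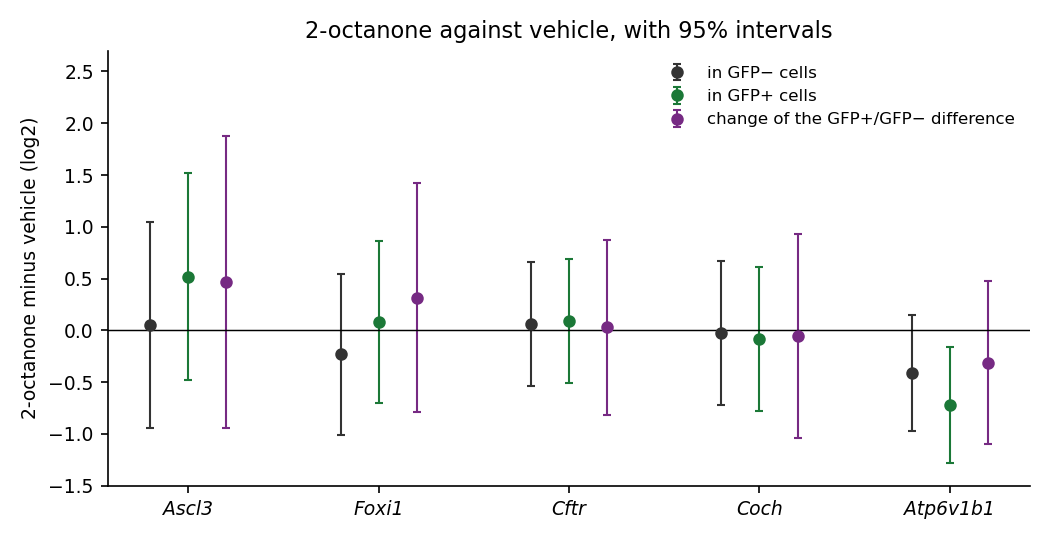
2-octanone minus vehicle (log2, vertical axis, point with 95% interval from limma) for the 5 genes in GFP− cells, in GFP+ cells and for the change of the GFP+/GFP− difference. All intervals include 0 except that of Atp6v1b1 in GFP+ cells, −1.28 to −0.16, whose adjusted p was 1.

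Over the 8 GFP− arrays, where Atp6v1b1 was above background on 3 and the other members on all, the members differed in how they varied from pool to pool. Foxi1 and Coch varied together, with Pearson's r of 0.94 (exact permutation p = 0.000223, two-sided, and 0.00223 adjusted over the 10 pairs of members) and Spearman's rho of 0.95 (exact permutation p = 0.00114, adjusted 0.0114). The permutation tests took the 8 pools as exchangeable and ignored exposure and replicate number. Without the 2 pools farthest from the median of Foxi1, r was 0.89, and with each exposure centred on its own mean it was 0.96. Without both pools numbered 4, r was 0.95. Within the 4 pools of each exposure r was 0.98 after 2-octanone and 0.78 after vehicle, too few for a test. Lowest for both genes was 2-octanone pool 1, followed by 2-octanone pool 3.

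The other 9 pairs missed the threshold. Cftr and Coch gave r = 0.84 (exact permutation p adjusted to 0.0506) and rho = 0.86 (adjusted 0.0536), and Ascl3 and Coch gave r = 0.78 (adjusted 0.0745) and rho = 0.71 (adjusted 0.139). Foxi1 with Cftr gave r = 0.73 and with Ascl3 r = 0.62. Without both pools numbered 4, r was 0.75 for Cftr and Coch, 0.54 for Ascl3 and Coch, 0.66 for Foxi1 and Cftr and 0.44 for Foxi1 and Ascl3. In the same order it was 0.96, 0.91, 0.92 and 0.83 within the 2-octanone pools and 0.69, 0.32, 0.43 and −0.16 within the vehicle pools. Atp6v1b1 gave r of 0.26 to 0.63 with the other members, and was itself under background on 5 of the 8 arrays. Its r with Coch was 0.49, and 0.91 without both pools numbered 4 or 0.92 without the 2 pools farthest from the median of Coch. Its r with Foxi1 was 0.63, and 0.88 without both pools numbered 4 or 0.05 without the 2 pools farthest from the median of Foxi1.

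These arrays also share the sorted pool's mix of cells. Highest with Coch among the neutrophil markers was Lcn2, at r = 0.89 and at 0.84 with Foxi1. Among the Trpm5 cell markers it was Alox5, at 0.85 and 0.81. Lowest with Coch in these lists were Mpo, at 0.37 and 0.43 with Foxi1, and Dclk1, at −0.26 and −0.13. Apart from Mpo, the neutrophil markers gave r of 0.69 or more with Coch and 0.70 or more with Foxi1. With Ascl3, S100a8 gave 0.88 and Mpo 0.64, beside 0.78 for Coch, the member closest to Ascl3. High values were thus not particular to pairs of members. The part of the pools' cell mix in the relation of Foxi1 and Coch was not tested.

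**Figure D5:**
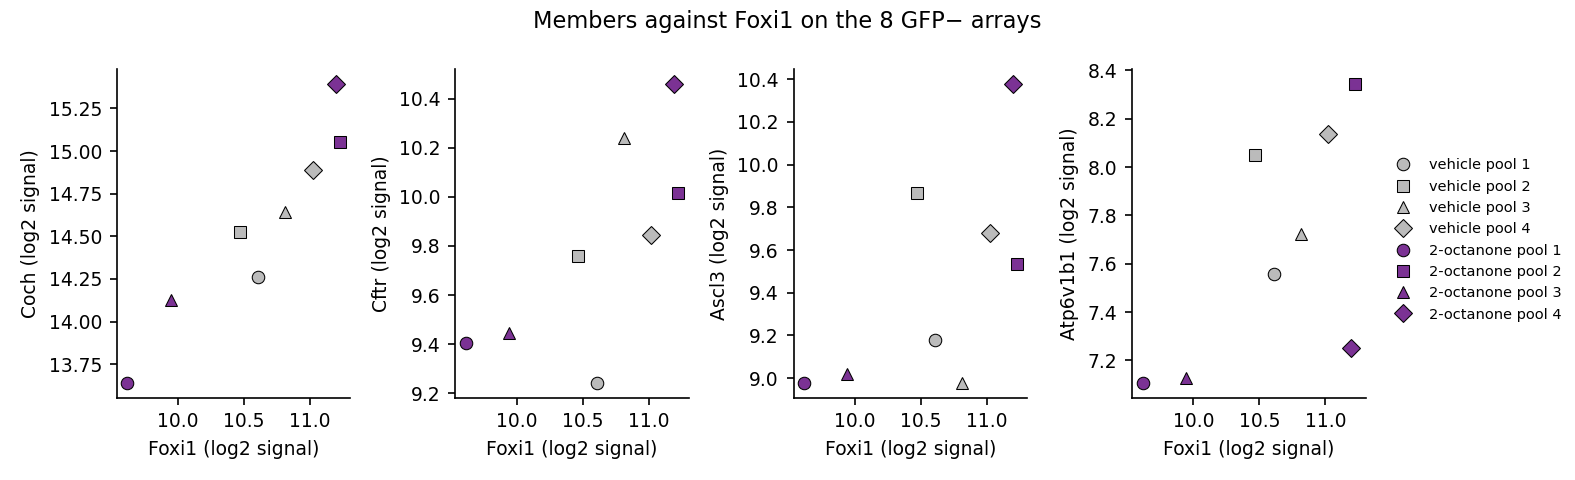
Signal of Coch, Cftr, Ascl3 and Atp6v1b1 (log2, vertical axes) against that of Foxi1 (log2, horizontal axes) on the 8 GFP− arrays, 1 symbol per pool, grey for vehicle and purple for 2-octanone. The points of Coch lie near a line (r = 0.94), and those of Atp6v1b1 spread widely (r = 0.63).

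Likeness was also measured for each member over the 8 GFP− arrays against the 9082 genes above background on all of them, as Pearson's r with no test. That filter rests on the fraction where the members are high, and the share of these genes called lower was not counted. The 5 genes most like Foxi1 were Sult1c1 (0.95), Coch (0.94), Svopl (0.94), Chil3 (0.94) and Tmem30b (0.92). All of them were called lower in GFP+ cells, as were 14% of all probe sets, with Chil3, a chitinase-like gene of myeloid cells, at −7.12. For Ascl3 they were B430306N03Rik (0.95), Anxa11 (0.95), Mxd1 (0.95), Pglyrp1 (0.94) and Cmss1 (0.94). All but Cmss1 (−0.26) differed in the sort by between −3.98 and −0.90, and −3.98 was that of Pglyrp1, a peptidoglycan recognition protein gene of neutrophils.

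For Cftr the most alike were Zfp182 (0.96), Trp53inp1 (0.95), Slc39a1 (0.93), Rngtt (0.91) and Ccdc47 (0.90), and only Trp53inp1 was called in the sort (−1.06). For Coch they were Trmt13 (0.97), Gm21992 (0.96), Dhx40 (0.96), Smbd1 (0.96) and Tmem165 (0.95). Of these, Smbd1 (−1.35) and Tmem165 (−0.37) were called lower in the sort, and Trmt13 (−0.03), Gm21992 (0.11) and Dhx40 (−0.01) were not called. For Atp6v1b1, itself under background on 5 of these 8 arrays, they were Lamp2 (0.97), Mrpl24 (0.94), Otx2 (0.93), Cyp2f2 (0.93) and Dcn (0.93), an order that rests largely on values under background. Only Coch, for Foxi1, was itself a member among these 25.

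The genes with the highest mean r over all members were Sirt1 (0.81), Mal (0.80), Cdh1 (0.80), Dhx40 (0.79) and Sult1c1 (0.78). Cdh1, the gene of the epithelial adhesion protein E-cadherin, read 11.14 to 12.45 in GFP− cells and differed by −2.52 (SE 0.22) in the sort. Among the listed ionocyte genes, Hepacam2 gave r = 0.93 with Coch and 0.89 with Foxi1, and Stap1 gave 0.92 and 0.83. Tfcp2l1, which was not called in the sort, gave 0.87 and 0.90. Others of that list went the other way, such as Parm1 (−0.34 and −0.36) and Slc26a4 (−0.35 and −0.18), both under background on all arrays. The proton pump subunit gene Atp6v0d2 gave 0.87 with Coch, 0.87 with Foxi1 and 0.82 with Atp6v1b1, and Atp6v1c2 gave 0.88 with Atp6v1b1, both of these against values of Atp6v1b1 that lay mostly under background.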

How the data were processed

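The authors deposited 1 table of 28846 probe sets for 16 arrays, made with Affymetrix Expression Console per the submitters' processing notes. The deposited values were read as log2 signals from their range, and log base, algorithm and genome build are not given in the sources used here. Of the probe sets, 6640 were controls, 2634 named no gene and 19572 named 1 gene, 19505 symbols in all; these names come from GEO's platform annotation, and all Entrez identifiers matched a RefSeq table. For the 55 symbols with several probe sets, that of the highest mean was used. The number of arrays, 4 per group, limits the precision.

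The 16 arrays entered 1 linear model of the 4 group means in limma 3.58.1 (R 4.3.3, functions lmFit and eBayes, 12 residual degrees of freedom, two-sided), with Benjamini-Hochberg adjustment over the 19572 probe sets and no filter. The fit was tested on simulated data. Intervals are 95% and not adjusted. This fit has no pool term, and the pool, whose 2 fractions share 3 mice, entered as a block in an alternative. Residuals from the group means correlated at −0.0049 to 0.46 between a pool's fractions, across genes. Between exposures, residuals of like replicate number correlated at 0.17 to 0.43 in GFP+ cells, where each of the 8 arrays correlated best with its own number, so the numbers were taken to pair those arrays, from the data and not from the labels. Correlations over pools used exact permutation tests (scipy 1.17.1).

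The alternatives were quantile normalisation, median centring, a filter at the median mean signal, limma's trend and robust options, fitting only the arrays compared, leaving out pools, and the pool or replicate number as a block. Genes named are the members, up to 4 genes with the smallest p in each pathway list and every gene of the short lists, and some others of the lists were named after their values were seen. The members, lists and rules were chosen with earlier results of these data known. That pools are separate mice comes from the labels.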

Additional observations from a re-analysis of the deposited data

Results flagged for a closer look

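In a check of 30 sets of 4 values, of which chance alone sets apart about 1 in 20, a pair of values stood far from the rest of their set. The difference of Ascl3 between GFP+ and GFP− cells in vehicle pool 2 was −5.61, while the other 3 vehicle pools lay at −3.26 to −3.02. The GFP+ array of that pool read 4.26, and the level of Ascl3 was under background on all GFP+ arrays. Atp6v1b1 in GFP− cells of 2-octanone pool 2 read 8.34, while the other 3 arrays of the group read 7.11 to 7.25. That array was the only one of its group above background.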

How the results depend on the processing

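In the sort, over both exposures and within each, Ascl3, Foxi1, Cftr and Coch were lower and called in every alternative that tested them. Over both exposures the alternatives ran from −3.73 to −3.24 for Ascl3, −3.19 to −2.78 for Foxi1, −2.82 to −2.38 for Cftr and −2.25 to −1.89 for Coch. The filter on low signal left Ascl3 and Atp6v1b1 out. Without 2-octanone pools 3 and 4, added after seeing the data, the same 4 genes were called. Atp6v1b1 was called over both exposures at −0.45 with the pool as a fixed block (adjusted p = 0.018) and as a random block (0.037), and after 2-octanone at −0.61 with the fixed block (0.0362); the pool block changed no other call of a member. After vehicle the log2 difference of Atp6v1b1 turned sign, to 0.0053 with quantile normalisation and 0.0070 with centring, and no alternative called it there.

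No member was called for 2-octanone under any alternative, and signs near 0 turned. In GFP+ cells Foxi1 was −0.10 without both pools numbered 4 and −0.25 without 2-octanone pools 3 and 4, where Cftr was −0.062. In GFP− cells Cftr was −0.13 and Ascl3 −0.16 without both pools numbered 4, and −0.063 and −0.17 without 2-octanone pools 3 and 4. The change of the sort difference for Cftr was −0.022 with quantile normalisation and −0.013 with centring. Leaving out each pool gave, in GFP+ cells, −0.32 to 0.16 for Coch, −0.20 to 0.28 for Foxi1 and −0.15 to 0.25 for Cftr. In GFP− cells it gave −0.48 to 0.060 for Foxi1, −0.31 to 0.28 for Coch, −0.15 to 0.21 for Cftr and −0.25 to 0.22 for Ascl3. For the change of the difference it gave −0.36 to 0.37 for Cftr, −0.22 to 0.13 for Coch and −0.14 to 0.72 for Ascl3. The cause was not tested.

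Over all probe sets, centring called 15141 in the sort over both exposures and the filter 3664, against 6000. After vehicle these were 11289 and 2221 against 3633. After 2-octanone they were 9535 and 1811 against 2955, with 1963 without 2-octanone pool 2 and 1518 without 2-octanone pools 3 and 4. Of the calls over both exposures, 13089 were higher and 2052 lower after centring, against 3263 and 2737. In GFP− cells 2-octanone gave 0 to 2 calls, and the change of the difference gave 1 without 2-octanone pools 3 and 4.

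In GFP− cells residuals of like replicate number correlated at −0.06 to 0.52. There 6 of 8 arrays correlated best with their own number, so the pairing is less clear in this fraction. Both fractions of a pool come from the same 3 mice, so a pairing of pools by number would hold for both. With the number as a replicate block, no call of a member changed in either fraction, and Atp6v1b1 had an adjusted p of 0.932 in GFP+ and 0.998 in GFP− cells. The block called 0 probe sets in each fraction, with 920 in GFP+ and 774 in GFP− cells at an unadjusted p under 0.05 in limma. At the 99th percentile of the controls, 8 arrays of Foxi1 and 3 of Atp6v1b1 were above background, against 9 and 4.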
